A study of Mus musculus with 12 samples.

Results

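The AP-1 transcription factors were examined here as 9 genes: the Fos family members Fos, Fosb, Fosl1 and Fosl2, the Jun family members Jun, Junb and Jund, and the related factors Atf3 and Maff. The members were chosen by gene symbol, with earlier results of these data known. Each was read from a probe set annotated to that gene alone, the brightest over all arrays where a gene had several. Of the 9 genes, 8 had such a probe set, among 22180 genes that did. The only probe set of Fosl1 was shared with the gene Ccdc85b and was not used. RNA was profiled on 12 Affymetrix arrays of C57BL/6 mouse fat, with 3 arrays labelled as biological replicates in each of 4 groups. These were adipose progenitors from the perigonadal visceral depot (AP VAT), adipose progenitors from the inguinal subcutaneous depot (AP SAT), whole visceral adipose tissue (AT VAT) and whole subcutaneous adipose tissue (AT SAT). AP were the cells of the enzymatically dissociated tissue that were left after magnetic beads had taken out lineage-positive blood cells and CD31-positive endothelial cells, so they were a depleted mixture, not a sorted type. Cells and tissue were fresh, and the depots of several mice were used. The labels give neither sex nor age, and no animals are named for the replicates, so the tests see only the spread among the 3 arrays of a group.

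AP-1 is a dimer of basic leucine zipper (bZIP) proteins. Jun proteins pair with each other or with Fos proteins, whereas Fos proteins need a Jun partner to bind DNA, and the pair recognises a short palindrome in promoters and enhancers. Fos, Fosb, Jun, Junb and Atf3 are immediate early genes, whose transcription starts within minutes of growth factors, cytokines, mechanical stress or tissue handling, without new protein synthesis. In mouse adipocytes a Fos-containing complex was found on the promoter of the fatty acid binding protein gene Fabp4, and AP-1 factors are also known as regulators of matrix proteases and cytokines in fibroblasts.

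The regulation of these genes is read largely from their promoters, so the bases just before the start of 6 members are shown, as a reference for the values that follow. The windows come from RefSeq on build GRCm38.p6, which held 8 of the 9 genes in 10 windows; each line gives the last 150 bases before an annotated start, on the gene's strand, with motif matches in capitals. The windows are chr12:85473740-85473889 (plus strand) for Fos, chr7:19310046-19310195 (minus) for Fosb, chr4:95052223-95052372 (minus) for Jun, chr8:84978749-84978898 (minus) for Junb, chr1:191183334-191183483 (minus) for Atf3 and chr15:79347370-79347519 (plus) for the middle one of the starts of Maff. The window of Fosb precedes a start that lies inside the gene span given below, so it reaches into that span.
Fos: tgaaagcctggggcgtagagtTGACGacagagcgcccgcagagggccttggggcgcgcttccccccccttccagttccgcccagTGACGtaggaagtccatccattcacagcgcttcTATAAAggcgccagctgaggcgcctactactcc
Fosb: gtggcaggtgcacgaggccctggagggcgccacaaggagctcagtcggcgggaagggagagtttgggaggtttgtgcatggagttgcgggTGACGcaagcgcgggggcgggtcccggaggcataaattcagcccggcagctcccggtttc
Jun: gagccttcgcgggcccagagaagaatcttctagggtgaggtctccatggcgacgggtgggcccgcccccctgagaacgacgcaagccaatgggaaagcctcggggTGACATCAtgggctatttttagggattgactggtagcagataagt
Junb: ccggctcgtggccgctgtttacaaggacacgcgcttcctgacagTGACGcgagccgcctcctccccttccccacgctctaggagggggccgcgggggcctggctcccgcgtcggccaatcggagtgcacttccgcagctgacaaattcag
Atf3: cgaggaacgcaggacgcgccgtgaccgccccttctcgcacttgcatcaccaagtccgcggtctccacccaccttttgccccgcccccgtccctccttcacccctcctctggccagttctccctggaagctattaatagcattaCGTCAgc
Maff: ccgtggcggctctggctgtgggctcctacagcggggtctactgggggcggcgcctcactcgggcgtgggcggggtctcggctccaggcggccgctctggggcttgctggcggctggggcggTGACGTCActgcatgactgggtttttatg

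The letters searched were TGACGTCA (the cyclic AMP response element, to which CREB and ATF proteins bind), its core TGACG, TGACATCA (the variant described in the Jun promoter) and the CArG box, all on both strands, and TATAAA on the gene's strand, over the 250 bases before each start. The classic AP-1 site was searched as TGACTCA with any base allowed in its middle position, also on both strands. TGACG is contained in TGACGTCA. Maff held TGACGTCA 29 to 22 bases before its start, a motif present in 1.55% of all 32851 windows. TGACG was found in 6 of the 10 member windows, against 17.8% of all windows. They belonged to 5 of the 8 genes, namely Fos, Fosb, Junb, Atf3 and Maff. In Fos it occurred at 129 to 125 and at 66 to 62 bases before the start, and a TATAAA lay at 33 to 28. Jun held TGACATCA at 45 to 38 bases before its start, as did another window of Maff, and 2.93% of all windows held it. Within these 250 bases no member window held the classic AP-1 site (6.75% of all windows) or a CArG box (1.47%). Bases further upstream were not searched, so sites of either kind there would have been missed. The windows of Fosl2 and Jund held none of these motifs.

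The arrays of 1 group correlated at 0.9869 to 0.9936, and the array medians lay between 4.49 and 4.67. Values are log2 intensities, and group means below the 40th percentile of the array values (4.09) were treated as near background; no member had one. The labelled material was checked against marker genes, whose linear intensities were summed per array. The 8 adipocyte markers summed to 457 to 578 in AP VAT and 416 to 484 in AP SAT, against 21421 to 22526 in AT VAT and 19055 to 19688 in AT SAT. The 7 measured progenitor markers summed to 14939 to 16026 in AP VAT and 17285 to 18634 in AP SAT, against 6223 to 7070 in AT VAT and 4673 to 9470 in AT SAT. The 6 endothelial markers ranged from 243 to 337 over the AP arrays and from 1462 to 2193 over the AT arrays, and the 7 macrophage and leukocyte markers from 226 to 260 over the AP arrays and from 1807 to 3135 over the AT arrays. The 6 mural cell markers ranged from 5932 to 8263 over the AP arrays and from 1485 to 2137 over the AT arrays. Unlike the macrophage and leukocyte markers, the 4 mast cell markers summed higher in AP. Their sums were 836 to 1212 in AP VAT against 288 to 345 in AT VAT. In SAT they were 2037 to 2341 in AP against 571 to 1337 in AT. Mixtures of cells were measured, so fewer cells of a type and less RNA per cell cannot be told apart. All AP preparations and none of the tissues had been dissociated, so cell type and handling cannot be told apart either.

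In both depots all 8 measured AP-1 genes were higher in AP than in AT, and for every one of them the lowest AP array exceeded the highest AT array. Over all genes, 15.8% were called higher in VAT and 16.1% in SAT, and 20.5% and 23.5% were higher without overlap. The median log2 difference of the members was 4.12 in VAT and 4.14 in SAT, against 0.03 over all genes in each depot. Scaled to housekeeping genes, the median of all genes stood at 0.58 in VAT and 0.68 in SAT, and all 8 members remained higher, Maff by 0.98 in VAT and 0.81 in SAT relative to that median. A call here is an adjusted p under 0.05 in limma's moderated test, with Benjamini-Hochberg adjustment over all genes. Of the 9 measured housekeeping genes, 4 were themselves called lower in AP in each depot, 3 of them at least 2-fold. In SAT 1 was called higher, and in VAT 2 were. Falls lost under housekeeping scaling, here and below, therefore rest on a reference that itself moved.

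Fos (Entrez Gene 14281, chr12:85473890-85477274) encodes c-Fos, the founding Fos protein, which acts only with a Jun partner. Its log2 intensities were 10.86, 10.73 and 11.01 in AP VAT, against 4.64, 4.53 and 5.02 in AT VAT. In AP SAT they were 10.72, 10.64 and 10.88, against 4.57, 4.85 and 4.51 in AT SAT. The 6 AP arrays lay within a narrow band far above the 6 AT arrays, which sat not far above the background level. The difference between AP and AT was 6.14 in VAT (SE 0.139, 70.4-fold, adjusted p = 1.92e-13) and 6.10 in SAT (SE 0.139, 68.8-fold, adjusted p = 1.76e-13). Fos ranked 1 of 22180 genes by this difference in each depot.

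Fosb (Entrez Gene 14282, chr7:19302696-19310118), whose splice forms include the stable protein known as delta FosB, was closest to Fos in all arrays. It measured 11.47, 11.36 and 11.49 in AP VAT, against 5.27, 5.24 and 5.82 in AT VAT. In AP SAT it measured 11.44, 11.51 and 11.55, against 5.36, 5.57 and 5.35 in AT SAT. The AP arrays of both depots overlapped, as did the AT arrays. The log2 difference was 6.00 in VAT (SE 0.138, 63.9-fold, adjusted p = 1.92e-13) and 6.07 in SAT (SE 0.138, 67.3-fold, adjusted p = 1.76e-13), ranked 2 of all genes in each.

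Fosl2 (Entrez Gene 14284, chr5:32136472-32157840) encodes Fra-2, a Fos protein without the strong activation domain of c-Fos that appears later after stimulation. Its values were 9.95, 9.71 and 9.99 in AP VAT, against 7.62, 7.76 and 7.96 in AT VAT. In SAT they were 10.06, 9.86 and 10.04 in AP, against 7.55, 7.16 and 7.60 in AT. The rise was smaller than that of Fos and Fosb: 2.10 in VAT (SE 0.135, 4.30-fold, adjusted p = 1.04e-08) and 2.55 in SAT (SE 0.135, 5.86-fold, adjusted p = 1.11e-09). The ranks were 137 and 72 of 22180. The Fos family thus held both the largest differences and one of the smaller ones, and the remaining gene, Fosl1 (Fra-1), was not measured on its own.

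Jun (Entrez Gene 16476, chr4:95049036-95052222), the intronless gene of c-Jun, can form a homodimer and is a main partner of c-Fos. It gave 11.77, 11.81 and 11.85 in AP VAT, against 7.67, 7.44 and 7.74 in AT VAT. In AP SAT it gave 11.92, 11.88 and 11.92, against 7.38, 7.22 and 7.60 in AT SAT. The AP replicates were tight, with an SD of 0.04 in AP VAT and 0.023 in AP SAT, against 0.16 in AT VAT and 0.19 in AT SAT. The log2 difference was 4.19 in VAT (SE 0.114, 18.3-fold, adjusted p = 1.07e-12) and 4.51 in SAT (SE 0.114, 22.7-fold, adjusted p = 5.08e-13).

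Junb (Entrez Gene 16477, chr8:84976909-84978748), a Jun protein that activates more weakly than c-Jun and can oppose it, also rose. Its values were 10.71, 10.37 and 10.58 in AP VAT, against 6.64, 6.18 and 6.69 in AT VAT. In AP SAT they were 10.82, 10.52 and 10.67, against 7.02, 6.51 and 5.98 in AT SAT. The AT SAT arrays were the widest group of any member (SD 0.52), yet they stayed well under the AP arrays. The difference was 4.05 in VAT (SE 0.208, 16.6-fold, adjusted p = 8.88e-10) and 4.17 in SAT (SE 0.208, 18.0-fold, adjusted p = 5.75e-10).

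Jund (Entrez Gene 16478, chr8:70697739-70700616) is the Jun protein that many resting cells express steadily. It measured 10.78, 10.51 and 10.68 in AP VAT, against 8.18, 8.14 and 8.24 in AT VAT. In AP SAT it measured 10.93, 10.80 and 10.99, against 8.03, 7.89 and 8.32 in AT SAT. The groups did not overlap, and the difference was the smallest of the Jun family: 2.47 in VAT (SE 0.12, 5.54-fold, adjusted p = 4.52e-10) and 2.83 in SAT (SE 0.12, 7.09-fold, adjusted p = 9.50e-11). Another probe set of Jund, dimmer on average, gave means of 8.21 in AP VAT and 5.86 in AT VAT, and of 8.41 in AP SAT and 5.73 in AT SAT. These are differences of 2.35 and 2.68, near those of the brighter probe set.

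Atf3 (Entrez Gene 11910, chr1:191170296-191183333) is induced by stress, represses as a homodimer and can pair with Jun proteins. Its values were 10.83, 10.78 and 10.76 in AP VAT, against 6.83, 6.62 and 6.37 in AT VAT. In AP SAT they were 10.85, 10.55 and 10.65, against 6.57, 6.59 and 6.57 in AT SAT. The difference was 4.18 in VAT (SE 0.119, 18.2-fold, adjusted p = 1.75e-12) and 4.11 in SAT (SE 0.119, 17.2-fold, adjusted p = 1.54e-12), close to those of Jun and Junb.

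Maff (Entrez Gene 17133, chr15:79346621-79359078) is a small Maf protein, which has a zipper but no activation domain and takes its activity from its partner. It had 6.62, 6.72 and 6.90 in AP VAT, against 5.78, 5.60 and 5.83 in AT VAT. In AP SAT it had 6.79, 6.61 and 6.80, against 5.97, 6.20 and 5.50 in AT SAT. The AP arrays exceeded the AT arrays by less than for any other member. The rise was 1.01 in VAT (SE 0.151, 2.01-fold, adjusted p = 7.71e-05) and 0.84 in SAT (SE 0.151, 1.79-fold, adjusted p = 3.68e-04), ranked 836 and 1341 of 22180.

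**Figure D1:**
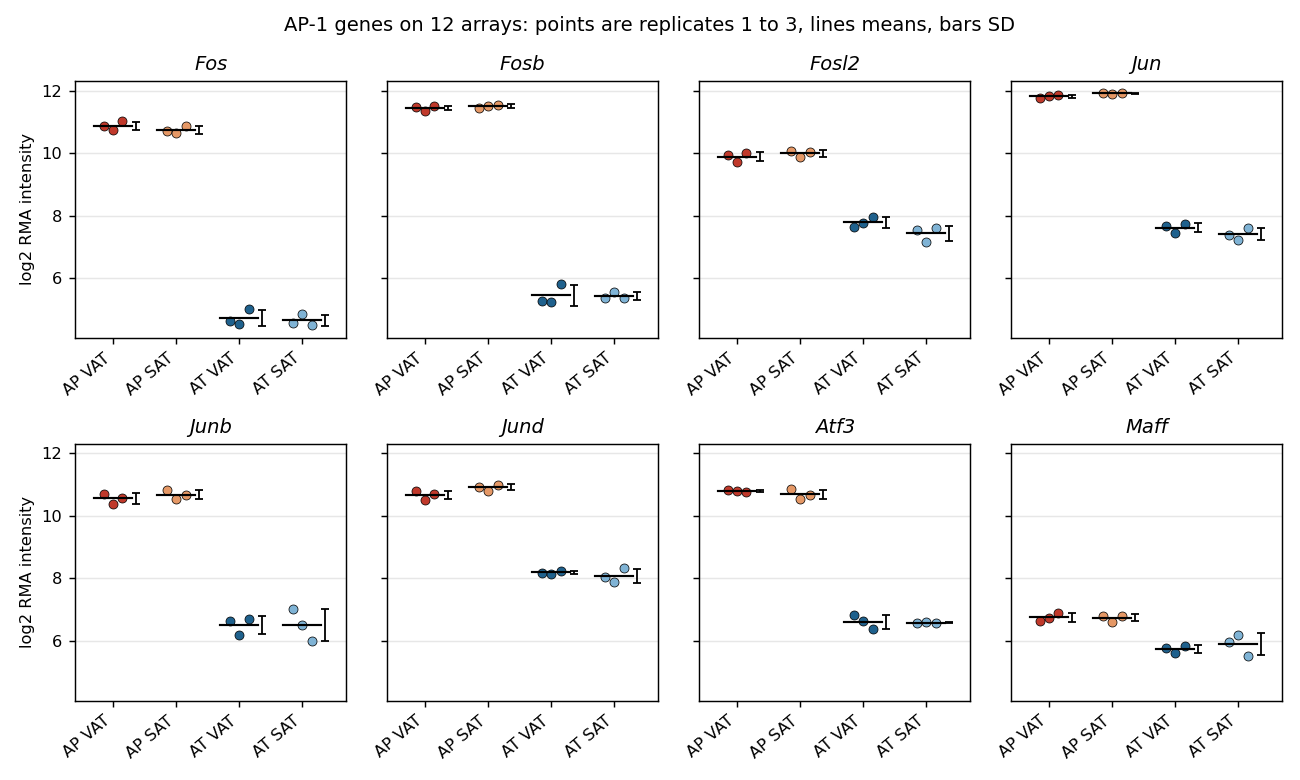
Log2 RMA intensity (vertical axis) of 8 AP-1 genes on 12 arrays, with groups in the order AP VAT, AP SAT, AT VAT and AT SAT; points are the replicates, horizontal lines the group means and bars the SD of 3 arrays. In every panel all AP points lie above all AT points, with the widest gap for Fos and Fosb and the narrowest for Maff.

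By the size of the difference between AP and AT the members fell into 4 tiers whose 95% intervals did not overlap within a depot. Fos and Fosb formed the top tier, with intervals of 5.84 to 6.43 and 5.70 to 6.29 in VAT and of 5.81 to 6.40 and 5.78 to 6.37 in SAT. Jun, Atf3 and Junb came next, with intervals in VAT of 3.95 to 4.44, 3.93 to 4.44 and 3.61 to 4.49. Jund (2.21 to 2.73 in VAT) and Fosl2 (1.82 to 2.39) made up the third, and Maff (0.69 to 1.33) stood alone. In SAT the order of tiers was the same, with Jun at 4.26 to 4.75, Junb at 3.72 to 4.61, Atf3 at 3.85 to 4.36, Jund at 2.57 to 3.08, Fosl2 at 2.26 to 2.84 and Maff at 0.52 to 1.17. The tiers are differences read from different probe sets, which need not respond alike, and differences between genes were not tested. The immediate early genes Fos, Fosb, Jun, Junb and Atf3 occupied the upper tiers, and ranked between 1 and 16 of 22180 genes in each depot.

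**Figure D2:**
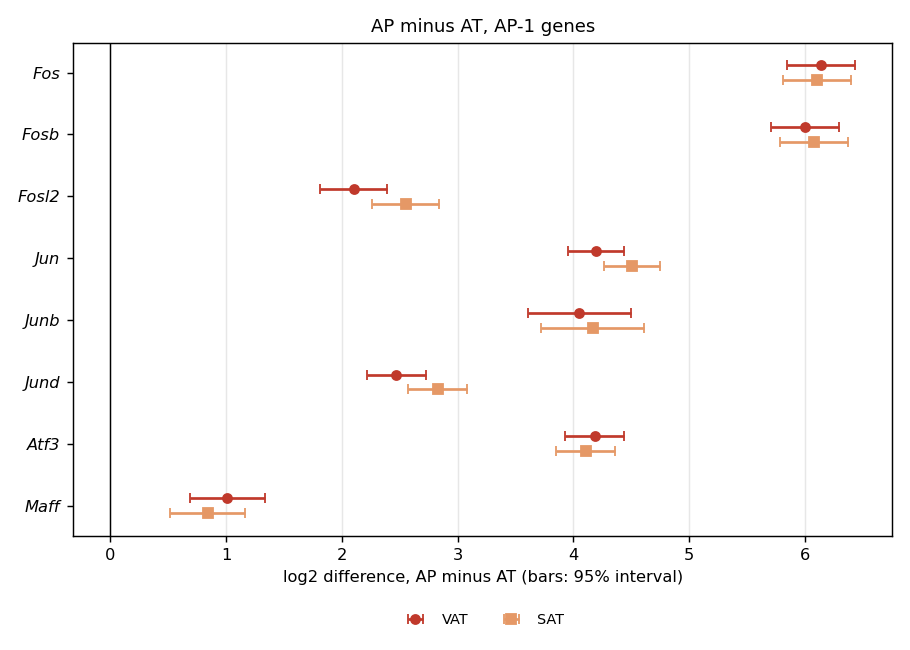
Difference in log2 intensity between AP and AT (horizontal axis) for each AP-1 gene, in VAT (circles) and SAT (squares), with 95% intervals from limma, 3 arrays per group. All intervals lie above 0, from Maff at 1.01 and 0.84 to Fos at 6.14 and 6.10.

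Replicates moved together over several members in AT VAT, AP SAT and AP VAT, but not in AT SAT. In AT SAT, replicate 2 was the highest for 4 members and the lowest for 3, and replicate 3 the highest for 3 and the lowest for 4. The same order was not counted over all genes. In AT VAT, replicate 3 was the highest of its group for 7 of the 8 members and replicate 2 the lowest for 6. In AP SAT, replicate 2 was the lowest for 7 members. In AP VAT, replicate 3 was the highest for 5 and replicate 2 the lowest for 5. The median SD of the members was 0.138 in AP VAT and 0.109 in AP SAT, against 0.201 in AT VAT and 0.205 in AT SAT. Over all genes those medians were 0.14 in AP VAT and 0.114 in AP SAT, against 0.144 in AT VAT and 0.132 in AT SAT, so the members were about as tight as other genes in AP and more scattered than the median gene in AT.

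The profiles over the 12 arrays, each centred on its own mean, were compared by Euclidean distance in log2 units. Fos and Fosb lay 0.37 apart, Jund and Fosl2 0.72, and Jun and Atf3 0.75. Outside the members, the gene nearest to Fos and to Fosb was Egr1, an immediate early zinc finger factor, at 1.64 and 1.59, followed for both by Hspa1a and Hspa1b, which encode inducible heat shock proteins. The nearest to Jun was Zfp36 at 0.53, which encodes the mRNA-destabilising protein tristetraprolin, followed by the secreted matricellular protein gene Ccn1 and the antiproliferative gene Btg2. Junb lay nearest to Ccn1 (0.96), then to Socs3, a feedback inhibitor of cytokine signalling, and Btg2. The nearest to Atf3 was Btg2 (0.72), followed by Socs3 and Zfp36. Jund lay nearest to the small GTPase gene Rrad (0.53), then to Klf2 and Cygb, and Fosl2 to the zinc finger factor gene Klf2 (0.49), then to Slc6a8 and Thbs3. Maff had Snhg15 (0.57), a host gene of small nucleolar RNAs, Sdc1 and Dag1 as its nearest. The distances mostly follow the difference between AP and AT, which separates the arrays into clusters, and no correlation is given for that reason.

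The depots were then compared within each preparation. No AP-1 gene was called between VAT and SAT in AP, where limma called 5.64% of all genes. None reached an unadjusted p under 0.05 in this fit, whose spread is shared by the AP and the more scattered AT arrays. In AP the log2 differences ran from -0.25 for Jund to 0.12 for Fos. Jund was lower in all AP VAT arrays than in any AP SAT array, with an interval of -0.51 to 0.01 (adjusted p = 0.339). Jun too was lower in AP VAT without overlap, at -0.10 (-0.34 to 0.15), and 10.5% of all genes were lower without overlap in this comparison. For Fos the interval was -0.18 to 0.42, for Fosb -0.35 to 0.23 and for Junb, the widest, -0.56 to 0.33. Scaled to housekeeping genes, the median depot difference of all genes stood at 0.21 in AP and 0.33 in AT. Jund then stood at -0.037 in AP, and 0 members were called. Its distance from the median of all genes cannot change under that scaling.

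In AT, 0 of the 8 members were called between VAT and SAT, against 4.55% of all genes, and 1 had an unadjusted p under 0.05. This was Fosl2, which measured 7.62, 7.76 and 7.96 in AT VAT against 7.55, 7.16 and 7.60 in AT SAT. The AT VAT arrays were all the higher ones, as for 10.9% of all genes, and the difference was 0.34 (interval 0.06 to 0.63, adjusted p = 0.21). Jun differed by 0.22 (-0.03 to 0.46), and the other members by -0.15 to 0.11. Junb had the same mean of 6.50 in AT VAT and AT SAT, with an interval of -0.44 to 0.44.

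The interaction, which subtracts the VAT minus SAT difference of AT from that of AP, asks whether the excess of AP over AT depends on the depot. It was called for none of the 8 members and for 2.15% of all genes. Fosl2 had the largest value, -0.45 (interval -0.85 to -0.04, adjusted p = 0.314), and was the only member with an unadjusted p under 0.05. Jund was at -0.36 (-0.72 to 0.0046, adjusted p = 0.381) and Jun at -0.31 (-0.66 to 0.03, adjusted p = 0.432), while the others lay between -0.12 and 0.17. For Fosl2, Jund and Jun the excess in AP was thus smaller in VAT than in SAT by point estimate, but the differences did not pass the adjustment. The mesothelial markers, 6 of 6 higher in VAT in both preparations, summed to 3930 to 5646 in AP VAT against 213 to 314 in AP SAT, and to 2784 to 3460 in AT VAT against 231 to 287 in AT SAT. The 4 mast cell markers summed to 836 to 1212 in AP VAT against 2037 to 2341 in AP SAT, and to 288 to 345 in AT VAT against 571 to 1337 in AT SAT. Their part in the depot values was not tested.

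**Figure D3:**
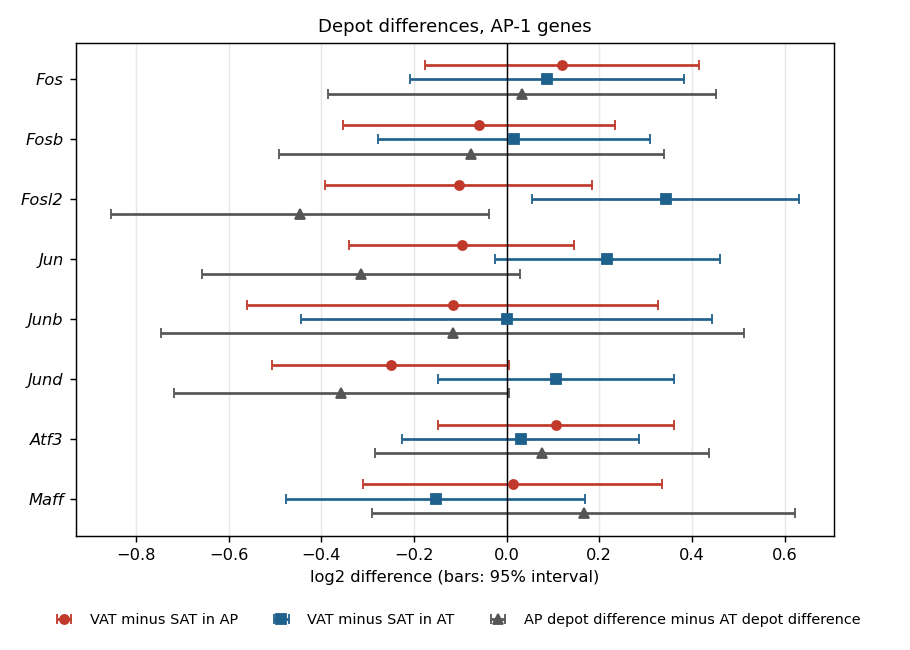
Depot differences in log2 intensity (horizontal axis) of each AP-1 gene: VAT minus SAT in AP (circles), VAT minus SAT in AT (squares), and the first minus the second (triangles), with 95% intervals from limma. All points lie between -0.45 and 0.34, and the intervals leave out 0 for Fosl2 alone, in AT and in the interaction.

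In all, 5 groups of genes around AP-1 were counted in the same fit, and here "higher" and "lower" mean called. Of all genes, 15.8% were called higher and 16.8% lower in VAT, and 16.1% and 16.3% in SAT. Among the other bZIP proteins that can pair or compete with AP-1, 9 of 17 were higher in AP in each depot, with a median log2 difference of 0.71 in VAT and 0.50 in SAT. Creb5, which can bind as a dimer with Jun, had means of 8.60 in AP VAT against 6.88 in AT VAT, and of 9.32 in AP SAT against 7.56 in AT SAT, rises of 1.72 (SE 0.186, adjusted p = 2.95e-06) and 1.76 (adjusted p = 2.08e-06). Cebpb, an early factor of adipogenesis, rose by 1.29 in VAT (SE 0.127), and Jdp2, a repressor that pairs with Jun, by 1.30 in SAT (SE 0.139). In VAT 2 genes were lower, Cebpg (-0.76) and Nfe2l1 (-0.32), and in SAT 4 were, led by the same 2 at -0.89 and -0.62; with arrays scaled to housekeeping genes 0 were lower, and Nfe2l1 stood at 0.23 in VAT and 0.037 in SAT. Of the falls in VAT, that of Nfe2l1 was lost (adjusted p = 0.0579 to 0.142) without replicate 2 of AP VAT or any 1 array of AT VAT. In SAT 2 were lower without replicate 2 of AP SAT or replicate 1 of AT SAT.

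The kinases that lead from the cell surface to AP-1 moved in both directions. Of 19 measured, 5 were higher and 4 lower in VAT (median -0.13), and 5 were higher and 7 lower in SAT (median -0.20). Of all genes, 15.8% were higher and 16.8% lower in VAT, and 16.1% and 16.3% in SAT. The kinase counts were not tested against these shares. Map3k8, the kinase Tpl2 of inflammatory signalling, rose by 0.88 in VAT (SE 0.159) and 1.25 in SAT (SE 0.159). Mapk7, known as ERK5, rose by 0.60 in VAT, and Mapk11, a p38 kinase, by 0.74 in SAT. Rps6ka3, a kinase that phosphorylates CREB and c-Fos, had the largest fall in VAT, with means of 7.24 in AP VAT and 9.01 in AT VAT (-1.77, SE 0.13, adjusted p = 4.40e-08), and remained called when scaled to housekeeping genes. The p38 kinase Mapk14 fell by 0.70 in VAT, Rps6ka5 by 0.73 and Map3k1 by 0.71 in SAT, and these 3 were not called after that scaling. Without any 1 array of AT VAT, 3 rather than 5 kinases were higher in VAT. Without replicate 2 of AP SAT, or replicate 1 or 3 of AT SAT, 4 rather than 7 were lower in SAT.

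Among factors that bind the promoters of Fos and related genes, and their coactivators, 8 of 15 were higher and 0 lower in VAT (median 0.36), and 9 were higher and 1 lower in SAT (median 0.45). The CREB coactivator Crtc3 rose by 1.38 in VAT and 1.70 in SAT (SE 0.139 each), and the MADS-box factor Mef2d by 1.24 and 1.08 (SE 0.108 each). Creb1 was lower in SAT (-0.34, adjusted p = 0.029), at 0.32 when scaled to housekeeping genes. Its adjusted p was 0.106, 0.0793, 0.136 and 0.0504 without replicate 2 or 3 of AP SAT, or replicate 1 or 3 of AT SAT, in that order.

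Genes listed for the turnover or restraint of AP-1 moved in both directions, with 4 of 10 higher and 5 lower in each depot. The medians were -0.21 in VAT and -0.25 in SAT. The lower genes in SAT included Cops5 (-0.49) and Nr3c1 (-0.52), and a listed gene need not limit AP-1 through protein turnover or mRNA decay. The rises were led by the decay factors Zfp36 (4.37 in VAT and 4.51 in SAT, SE 0.145 each, adjusted p = 6.16e-12 and 4.57e-12) and Zfp36l1 (1.60 and 1.70, SE 0.104 each), which destabilise mRNAs with AU-rich elements. The falls were led by Cop1 (-0.84 and -0.96) and Itch (-0.83 and -0.67), ubiquitin ligases that act on c-Jun and related proteins; with arrays scaled to housekeeping genes 0 of the 10 were lower in either depot.

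Of 21 measured genes known as AP-1 targets, 11 were higher and 2 lower in VAT (median 0.50), and 13 were higher and 1 lower in SAT (median 0.52). Dcn, higher by 0.82 in VAT and 0.95 in SAT, is also among the progenitor markers summed above. The part of cell composition in the rises was not tested. The prostaglandin synthase Ptgs2 had means of 10.05 in AP VAT against 5.46 in AT VAT, and 11.47 in AP SAT against 5.47 in AT SAT (4.59 and 5.99, SE 0.307 each). The cytokine Il6 had means of 8.08 in AP VAT against 3.66 in AT VAT, and 9.41 in AP SAT against 3.44 in AT SAT. Both AT means of Il6 are near background, so its differences of 4.42 and 5.98 are fitted values only. The gelatinase Mmp9 fell by 1.96 in VAT and 2.17 in SAT (SE 0.238 each), and the angiogenic factor Vegfa by 1.33 in VAT (SE 0.148). The macrophage and leukocyte markers, among whose cells Mmp9 is known to be expressed, were also lower in AP (6 of 7 called in each depot), and their part in the fall of Mmp9 was not tested. Without replicate 3 of AP VAT, replicate 3 of AT SAT, or replicate 1 or 3 of AT VAT, 2 targets rather than 1 were lower in SAT.

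**Figure D4:**
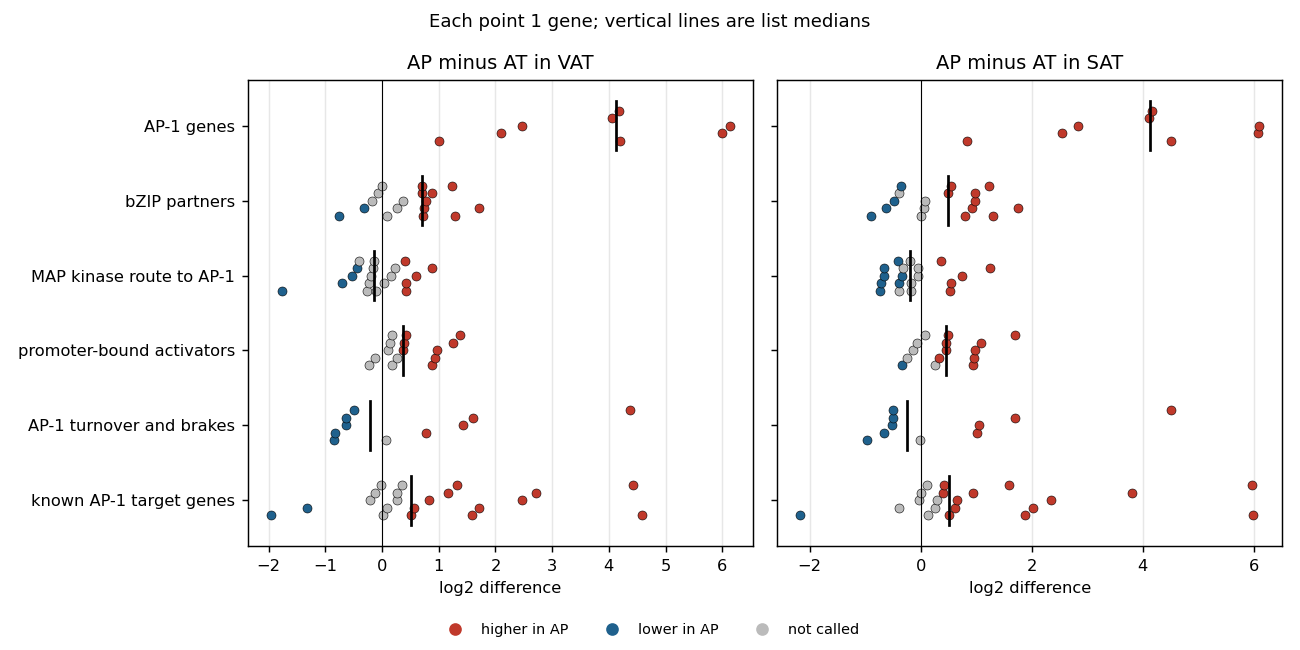
Difference in log2 intensity between AP and AT (horizontal axis) for the AP-1 genes and 5 groups of genes around them, in VAT (left) and SAT (right); each point is 1 gene, coloured by whether it was called higher, lower or neither, and vertical lines are medians. The AP-1 genes lie at 0.84 to 6.14, whereas each other group has a median between -0.25 and 0.71 with genes on both sides of 0.

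Between the depots, the surrounding groups had few calls, and most of the counts moved when 1 array was left out. In AP, 2 of 17 bZIP partners were higher in VAT and 2 lower (0 to 3 and 1 to 2 over the arrays left out), led by Maf (0.68) and by Jdp2 (-0.75), but 0 were lower when arrays were scaled to housekeeping genes. In AP 0 of 19 kinases were higher and 1, Map3k8, lower (-0.63), and 1 of 15 promoter-bound activators was higher (Elk3, 0.45) and 1 lower (Mrtfb, -0.36); none of these 3 was called after housekeeping scaling. Of the 10 genes listed for the turnover or restraint of AP-1, 0 were called between depots in AP or in AT. In AT, 2 bZIP partners were lower in VAT, Cebpb (-0.56) and Batf3 (-0.44), neither of them after housekeeping scaling; 1 kinase was higher, Rps6ka3 (0.65), and 1 activator was called higher, Crtc3 (0.52, adjusted p = 0.0477), though its AT VAT and AT SAT arrays overlapped. The call of Crtc3 was lost with array weights (adjusted p = 0.0521), with a random replicate block (0.0672) and in the compared groups alone (0.152). It was also lost without any 1 of the AP SAT arrays, replicate 1 or 3 of AP VAT, replicate 2 or 3 of AT VAT, or replicate 1 or 2 of AT SAT (adjusted p = 0.0573 to 0.207). The depot calls of Maf, Map3k8, Elk3, Mrtfb, Cebpb and Batf3 were each lost without at least 1 array of the groups compared (adjusted p = 0.0522 to 0.167), whereas those of Jdp2 in AP and Rps6ka3 in AT were kept with any 1 array left out. The targets held 1 higher and 4 lower gene in AP (1 and 3 to 4 over the arrays left out), and 2 higher and 3 lower in AT (1 to 3 and 1 to 3). The membrane-cytoskeleton linker Ezr had means of 8.65 in AP VAT against 6.55 in AP SAT, and of 8.15 in AT VAT against 6.58 in AT SAT (2.10 and 1.56, SE 0.128 each). The stromelysin Mmp3 had means of 5.57 in AP VAT against 9.55 in AP SAT, and of 4.40 in AT VAT against 7.66 in AT SAT (-3.98 and -3.27, SE 0.229 each). Ezr and Mmp3 were called under every alternative and with any 1 array left out. Background calls here were 3.03% higher and 2.6% lower in AP, and 2.8% and 1.75% in AT. Ezrin is known to be abundant in mesothelium, whose markers differed between the depots as given above, and their part in this difference was not tested.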

How the data were processed

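The authors deposited log2 intensities per probe set, made by RMA (robust multi-array average) with version 1.3.0.187 of Affymetrix Expression Console, per the submitters' processing notes. RMA gives all arrays nearly the same distribution, so values show changes relative to the other genes. Base 2 was inferred from the method and the range of values, 1.69 to 13.48. The values were used as deposited. Of 41345 probe sets, 23521 named 1 gene, 1814 several and 16010 none; the first kind gave 22180 genes.

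One mean per group was fitted over all 12 arrays with limma 3.58.1 (R 4.3.3), with 8 residual and 6.84 prior degrees of freedom, 2-sided and Benjamini-Hochberg adjusted over all genes within a contrast. SE and 95% intervals come from that fit, and SD from 3 arrays. Precision is limited by the number of arrays. Scripts were tested on simulated data.

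The members and gene lists were chosen with earlier results of these data known. Per contrast and list, the called genes with the strongest rise and fall were named, up to 2 each, and per member the 3 nearest profiles. Alternatives were a replicate block (fixed or random), trend and robust variance, array weights, the compared groups alone, quantile normalization, housekeeping scaling, a dim-gene filter, the mean of probe sets, a 2-fold demand and leaving out each array.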

Additional observations from a re-analysis of the deposited data

Results flagged for a closer look

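By limma's interaction test, the AP minus AT difference was called as depending on the depot for 3 genes around AP-1. They were 1 of 19 kinases and 2 of 21 targets, against 2.15% of all genes. The interaction was called for 0 of 17 bZIP partners, 0 of 15 promoter-bound activators and 0 of 10 turnover genes. These counts were not tested against the share of all genes. Of the 3 genes, Il6 was higher in AP than in AT, whereas the means of Rps6ka3 and Vegfa were lower in AP in both depots. For the CREB kinase Rps6ka3 the interaction was -1.10 (adjusted p = 0.00564), with means of 7.24 in AP VAT and 7.70 in AP SAT, and of 9.01 in AT VAT and 8.36 in AT SAT. Scaled to housekeeping genes it had an adjusted p of 0.0779. For the cytokine Il6 it was -1.56 (adjusted p = 0.00847), with means of 8.08 in AP VAT and 9.41 in AP SAT, and of 3.66 in AT VAT and 3.44 in AT SAT, the AT means being near background. For Vegfa it was -0.93 (adjusted p = 0.0313), with means of 7.38 in AP VAT and 9.01 in AP SAT, and of 8.70 in AT VAT and 9.40 in AT SAT. The call of Vegfa was lost without any 1 of 8 arrays: the 3 of AP SAT, replicates 2 and 3 of AP VAT, replicate 1 of AT VAT, or replicates 2 and 3 of AT SAT (adjusted p = 0.054 to 0.0811). It was also lost under quantile normalization, a random replicate block and housekeeping scaling.

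The probe set shared by Fosl1 and Ccdc85b, outside the members' measurements, was brighter in AP in both depots. It averaged 5.76 ± 0.13 in AP VAT against 4.80 ± 0.51 in AT VAT, and 5.70 ± 0.053 in AP SAT against 4.51 ± 0.15 in AT SAT (SD, n = 3 each). The log2 differences were 0.96 in VAT and 1.19 in SAT, and they were not tested. The 2 genes cannot be told apart on this probe set.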

How the results depend on the processing

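Each of the 40 member results (8 genes in 5 comparisons) was recomputed under up to 22 alternatives, and of 872 recomputed values 871 kept their direction or stayed uncalled as reported. The exception was Maff in SAT, whose difference of 0.84 failed a demand of at least 2-fold. The members called between AP and AT numbered 8 in each depot under every alternative except that demand, which left 7 in SAT, and 0 were called between depots or in the interaction. Leaving out each array in turn kept these counts at 8, 8, 0, 0 and 0. The highest adjusted p of Maff over all alternatives was 0.000671 in VAT and 0.00299 in SAT. The 9 measured housekeeping genes were not stable, with 4 called lower in AP in each depot, and 1 higher in SAT and 2 in VAT. Scaling to housekeeping genes put the median AP minus AT difference of all genes at 0.58 in VAT and 0.68 in SAT. Genes called then numbered 12948 in VAT (11998 higher) and 16851 in SAT (15940 higher), against 7239 (3507 higher) and 7186 (3571 higher) without it. Under it 3 falls turned: Creb1 in SAT stood at 0.32, and Nfe2l1 at 0.23 in VAT and 0.037 in SAT. Of the other values for named genes outside the members, 1122 were the same and 126 no longer passed the threshold. With the replicate number as a block, 8, 8, 0, 0 and 0 members were called in VAT, SAT, between depots in AP and in AT, and in the interaction, and 6968, 7013, 1187, 946 and 417 of all genes, against 7239, 7186, 1250, 1009 and 476. Same-numbered arrays of different groups deviated from their group means with correlations of -0.28 to 0.159, 3 of 18 over 0.1. Of those 18 comparisons, 7 had their own number as the best match. The labels do not say whether equal numbers mark the same animals, and these correlations cannot decide it. A demand of at least 2-fold left 1966, 2204, 370, 251 and 221 genes called. In the fit of the compared groups alone, 601 genes differed between depots in AT; this fit was not run for the interaction. Leaving out 1 array gave 849 to 1374 genes between depots in AP, 660 to 1026 in AT and 264 to 626 in the interaction. Housekeeping scaling gave 709, 784 and 149.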
